A study of Mus musculus with 82 samples.

Results

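The 35 mouse genes described here encode the enzymes and transporters of glycolysis and the genes of the response to low oxygen, and they were taken by gene name from the deposited gene tables. The names matched 36 of the 56941 rows of each table, because Aldoa names a second gene model (ENSMUSG00000114515) beside the main one, and all 36 rows passed the filter on low counts in both experiments, in which 18780 and 18434 genes were tested. The tissue was the right ear, of which 82 punches in 14 groups were sequenced, and the mice were females of the strain C57BL/6J Rj. In the time course, ears that received 5% imiquimod cream (Aldara, an agonist of the RNA sensor TLR7 that sets off a psoriasis-like skin inflammation) from mice given IDOR-1117-2520, an oral CCR6 inhibitor, in the drinking water were compared with ears that received imiquimod alone and with sham ears, labelled vehicle, at days 2, 5 and 8. Each of these groups held 6 libraries, except the sham group at day 5 with 4. In the start-day experiment, imiquimod ears of mice given the drug from day 0, 3 or 5, imiquimod ears without the drug and sham ears had 6 libraries each. The cream was applied once a day from day 0 to day 7, for 8 applications. In the time course the drug was given, per the labels' protocols, from at least 1 day before the first application to the end. Imiquimod and sham ears of the start-day experiment carry the label day 8, whereas the ears given the drug from day 0, 3 or 5 carry treatment times of 8, 5 and 3 days, so their day of collection cannot be read from the labels with certainty. Whether every library stands for its own animal is not stated in the labels, and the spread behind the p-values, which is that between these samples, may be technical.

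Glycolysis splits glucose into pyruvate in the cytosol, and lactate dehydrogenase turns pyruvate into lactate when flux through the pathway is high. The transcription factor HIF-1 accumulates when the prolyl hydroxylases that mark its alpha subunit for destruction lack oxygen, and it also accumulates in activated immune cells; its targets include glucose transporters, most glycolytic enzymes, lactate exporters and carbonic anhydrases. Keratinocytes, neutrophils and macrophages rely heavily on glycolysis, whereas resting skeletal muscle carries its own forms of several of the enzymes.

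HIF-1 and several other bHLH factors bind sites that often hold the letters ACGTG. The promoters of 6 members are shown because they hold between 5 and 0 of these matches and because these genes recur among the results; they were picked after their values had been seen. Each sequence holds the 250 bases before the gene's start in the RefSeq table of GRCm38.p6, which is not the authors' build GRCm39, written 5′ to 3′ on the gene's strand, and capitals mark ACGTG or its form on the other strand, CACGT, which overlap where CACGTG occurs.
Ldha (chr7:46845554-46845803, plus strand): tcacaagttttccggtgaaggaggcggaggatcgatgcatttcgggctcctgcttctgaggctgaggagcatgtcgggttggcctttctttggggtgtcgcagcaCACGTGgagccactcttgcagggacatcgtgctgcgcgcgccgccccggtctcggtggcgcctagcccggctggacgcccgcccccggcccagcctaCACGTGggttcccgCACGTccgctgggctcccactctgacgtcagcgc
Slc16a3 (chr11:120948817-120949066, plus strand): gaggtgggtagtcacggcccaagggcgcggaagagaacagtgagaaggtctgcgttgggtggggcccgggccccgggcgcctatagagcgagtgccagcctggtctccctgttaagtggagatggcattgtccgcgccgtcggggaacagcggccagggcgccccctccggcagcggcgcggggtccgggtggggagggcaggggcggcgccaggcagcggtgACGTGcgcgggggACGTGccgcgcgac
Pgk1 (chrX:106186850-106187099, plus strand): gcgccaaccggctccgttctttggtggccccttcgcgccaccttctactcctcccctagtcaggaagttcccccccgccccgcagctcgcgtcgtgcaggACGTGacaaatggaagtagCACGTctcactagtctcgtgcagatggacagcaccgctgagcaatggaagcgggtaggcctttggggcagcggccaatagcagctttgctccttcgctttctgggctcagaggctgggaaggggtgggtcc
Car9 (chr4:43506776-43507025, plus strand): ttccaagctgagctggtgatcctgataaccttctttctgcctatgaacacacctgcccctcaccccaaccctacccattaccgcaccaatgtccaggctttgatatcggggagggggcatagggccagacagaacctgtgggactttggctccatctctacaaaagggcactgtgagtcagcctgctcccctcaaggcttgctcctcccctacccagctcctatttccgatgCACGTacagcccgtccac
Ldhb (chr6:142507958-142508207, minus strand): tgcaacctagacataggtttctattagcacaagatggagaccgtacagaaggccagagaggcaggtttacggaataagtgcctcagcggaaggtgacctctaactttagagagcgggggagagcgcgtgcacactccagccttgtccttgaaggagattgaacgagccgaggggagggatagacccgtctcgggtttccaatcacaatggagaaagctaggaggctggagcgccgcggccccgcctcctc
Car12 (chr9:66713436-66713685, plus strand): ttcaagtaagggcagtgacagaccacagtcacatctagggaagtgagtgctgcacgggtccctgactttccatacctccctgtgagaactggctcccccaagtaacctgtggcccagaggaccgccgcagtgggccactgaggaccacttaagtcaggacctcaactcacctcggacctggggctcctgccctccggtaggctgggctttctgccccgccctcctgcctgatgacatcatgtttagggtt
The Ldha promoter shown held 5 matches and the other Ldha promoter in the table held 0. Slc16a3 and Pgk1 held 2 each, Car9 held 1, and Ldhb and Car12 held 0. The table has promoters for 32 of the 35 genes, and 19 of them (59.4%) had a match in at least 1 promoter, whereas 4998 of all 27025 genes in the table did (18.5%). Counted by promoter, 22 of 45 (48.9%) belonging to members and 5444 of all 32851 (16.6%) held one. The members were listed as genes of glycolysis and the response to low oxygen, which include HIF-1 targets. Their higher share is therefore tied to the choice of the list. Only ACGTG and CACGT were searched, so sites with other letters were not counted, and 0 matches does not show that a promoter lacks such sites. A match is a description of the letters in this window and says nothing of binding.

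Depth per library ranged between 13.1 M and 35.4 M counts over the time course. In the start-day experiment it ranged between 24.1 M and 35.5 M counts. A floor of 3 counts therefore corresponds to between 0.0777 and 0.228 CPM, the counts of a gene per 1 M counts of its scaled library, across the 82 libraries. Ear punches are mixed tissue, and fewer cells of a type and less RNA per cell cannot be told apart in them. Summed CPM of 8 genes of activated keratinocytes was 22573 to 31849 CPM in imiquimod ears at day 5 and 251 to 301 CPM in sham ears. Summed CPM of 10 neutrophil genes was 5027 to 7438 CPM and 18.4 to 26.6 CPM in the same groups, and Ly6g, a defining neutrophil marker, was at 0 in every sham group. Summed CPM of 10 skeletal muscle genes was 1834 to 2981 CPM in imiquimod ears and 4628 to 5849.6 CPM in sham ears at day 5, so the punches contained ear muscle. Of 10 macrophage and monocyte markers, 6 were higher with imiquimod than in sham ears at day 2 and all 10 at days 5 and 8 and in the start-day experiment. Their summed CPM was 974 to 1611 CPM in imiquimod ears and 308 to 412 CPM in sham ears at day 5. All 6 markers of proliferating cells were higher in each of these 4 comparisons, with 758 to 922 CPM in imiquimod ears and 185 to 210.5 CPM in sham ears at day 5. Of 6 sebaceous gland markers, 3 were higher and 1 lower at day 2, 1 and 4 at day 5, 0 and 5 at day 8, and 0 and 6 in the start-day experiment. These lists move with imiquimod in the comparisons with sham, and their part in the results was not tested.

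As a share of all counts, the 36 rows took 0.649 to 0.766% in ears with imiquimod and the drug, 0.720 to 0.960% in imiquimod ears and 0.571 to 0.616% in sham ears at day 2. At day 5 the shares were 0.962 to 1.40%, 1.37 to 1.49% and 0.575 to 0.616% in these 3 kinds of ear. At day 8 they were 1.04 to 1.27%, 1.12 to 1.27% and 0.521 to 0.583%. Imiquimod ears thus lay above sham ears in every library at each day. In the start-day experiment the share was 1.00 to 1.20% with the drug from day 0, 1.10 to 1.18% from day 3, 0.998 to 1.18% from day 5, 1.21 to 1.30% in imiquimod ears and 0.671 to 0.692% in sham ears, and no library given the drug reached the lowest imiquimod library.

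The median over the 35 genes (main Aldoa row only) of log2 CPM minus the mean of the sham libraries gives each library 1 value. Every gene weighs the same in it. This value was 0.11 ± 0.04 in ears with imiquimod and the drug, 0.25 ± 0.15 in imiquimod ears and 0.02 ± 0.03 in sham ears at day 2 (SD, n = 6 each). At day 5 it was 0.95 ± 0.24 with the drug, 1.35 ± 0.12 without it (SD, n = 6 each) and 0.03 ± 0.02 in sham ears (SD, n = 4). At day 8 it was 1.07 ± 0.20 with the drug, 1.01 ± 0.05 without it and -0.04 ± 0.02 in sham ears (SD, n = 6 each). Imiquimod libraries were above the sham libraries at all 3 days. Imiquimod libraries 9 and 11 were the highest of their group at day 2 (0.37 and 0.47). Libraries 36 and 32 were the highest and lowest with the drug at day 5 (1.31 and 0.62). Library 13 was the lowest with the drug from day 5 (0.81). Of these, only library 13 lay far from the others of its group by Dixon's test, described with the flagged results. The 2 imiquimod groups, with and without the drug, overlapped at each day. In the start-day experiment, where the shares did not overlap, this median did: it was 0.91 ± 0.09 with the drug from day 0, 1.02 ± 0.03 from day 3, 0.97 ± 0.08 from day 5, 0.95 ± 0.11 in imiquimod ears and 0.0006 ± 0.0066 in sham ears (SD, n = 6 each).

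**Figure D1:**
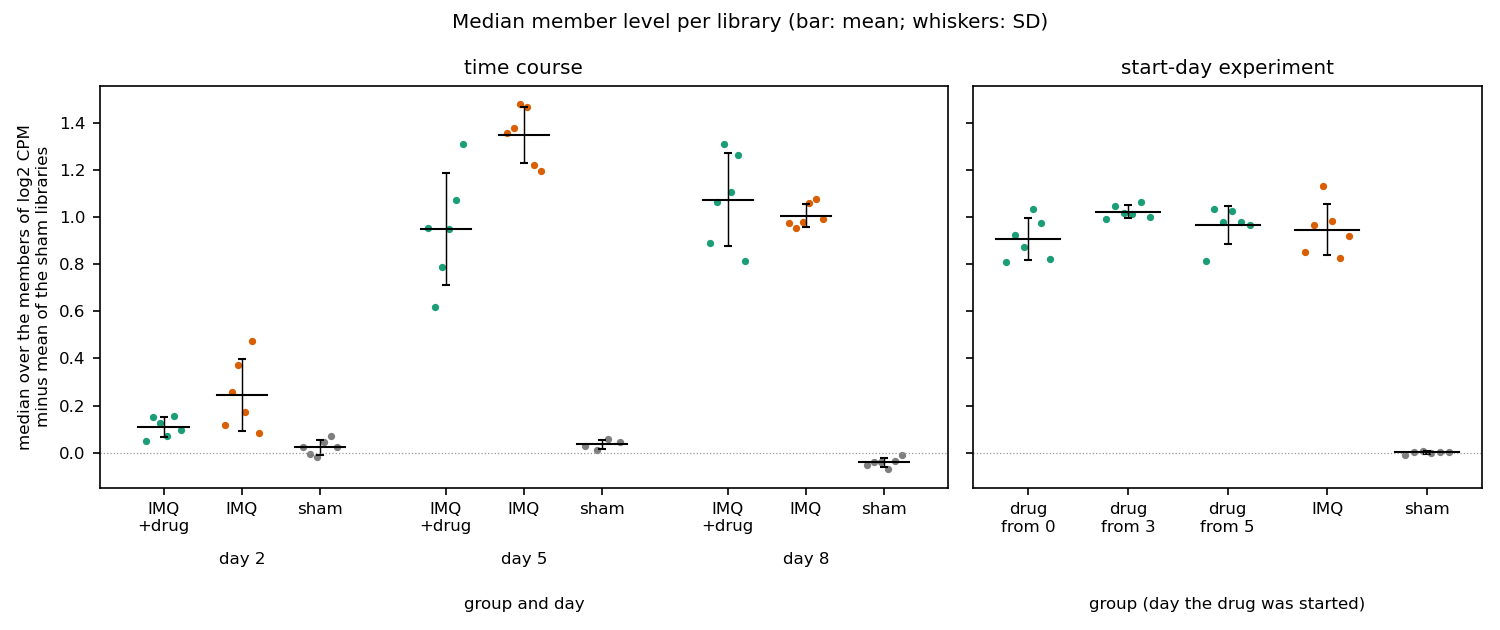
Each point is 1 library, by group (horizontal axis). The vertical axis gives the median over the 35 genes of log2 CPM minus the mean of the experiment's sham libraries. The second Aldoa row is left out. Imiquimod libraries span 0.08 to 0.47 at day 2 and 1.20 to 1.48 at day 5, and libraries with the drug at day 5 span 0.62 to 1.31.

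Most members differed between imiquimod and sham ears at each day. At day 2, 17 of the 36 rows rose and 7 fell (edgeR quasi-likelihood F test, adjusted p under 0.05), where 29.2% of all tested genes rose and 28.5% fell. At day 5, 29 rose and 4 fell, against 34.6% and 35.9% of all genes, and at day 8, 27 rose and 5 fell, against 34.5% and 33.6%. The median log2 fold change of the rows was 0.23 at day 2, 1.29 at day 5 and 1.07 at day 8, while that of all tested genes lay between -0.04 and -0.01. Scaling by library totals alone gave 14 higher and 10 lower at day 2, where 4562 and 6487 of all 18780 genes were. Without imiquimod libraries 9 and 11, 15 rose and 7 fell at day 2, where 4854 and 4356 of all 18741 genes did. The median of the rows at that day was 0.15 with library totals and 0.11 without the 2 libraries. That of all genes was -0.11 and -0.03 in these fits.

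**Figure D2:**
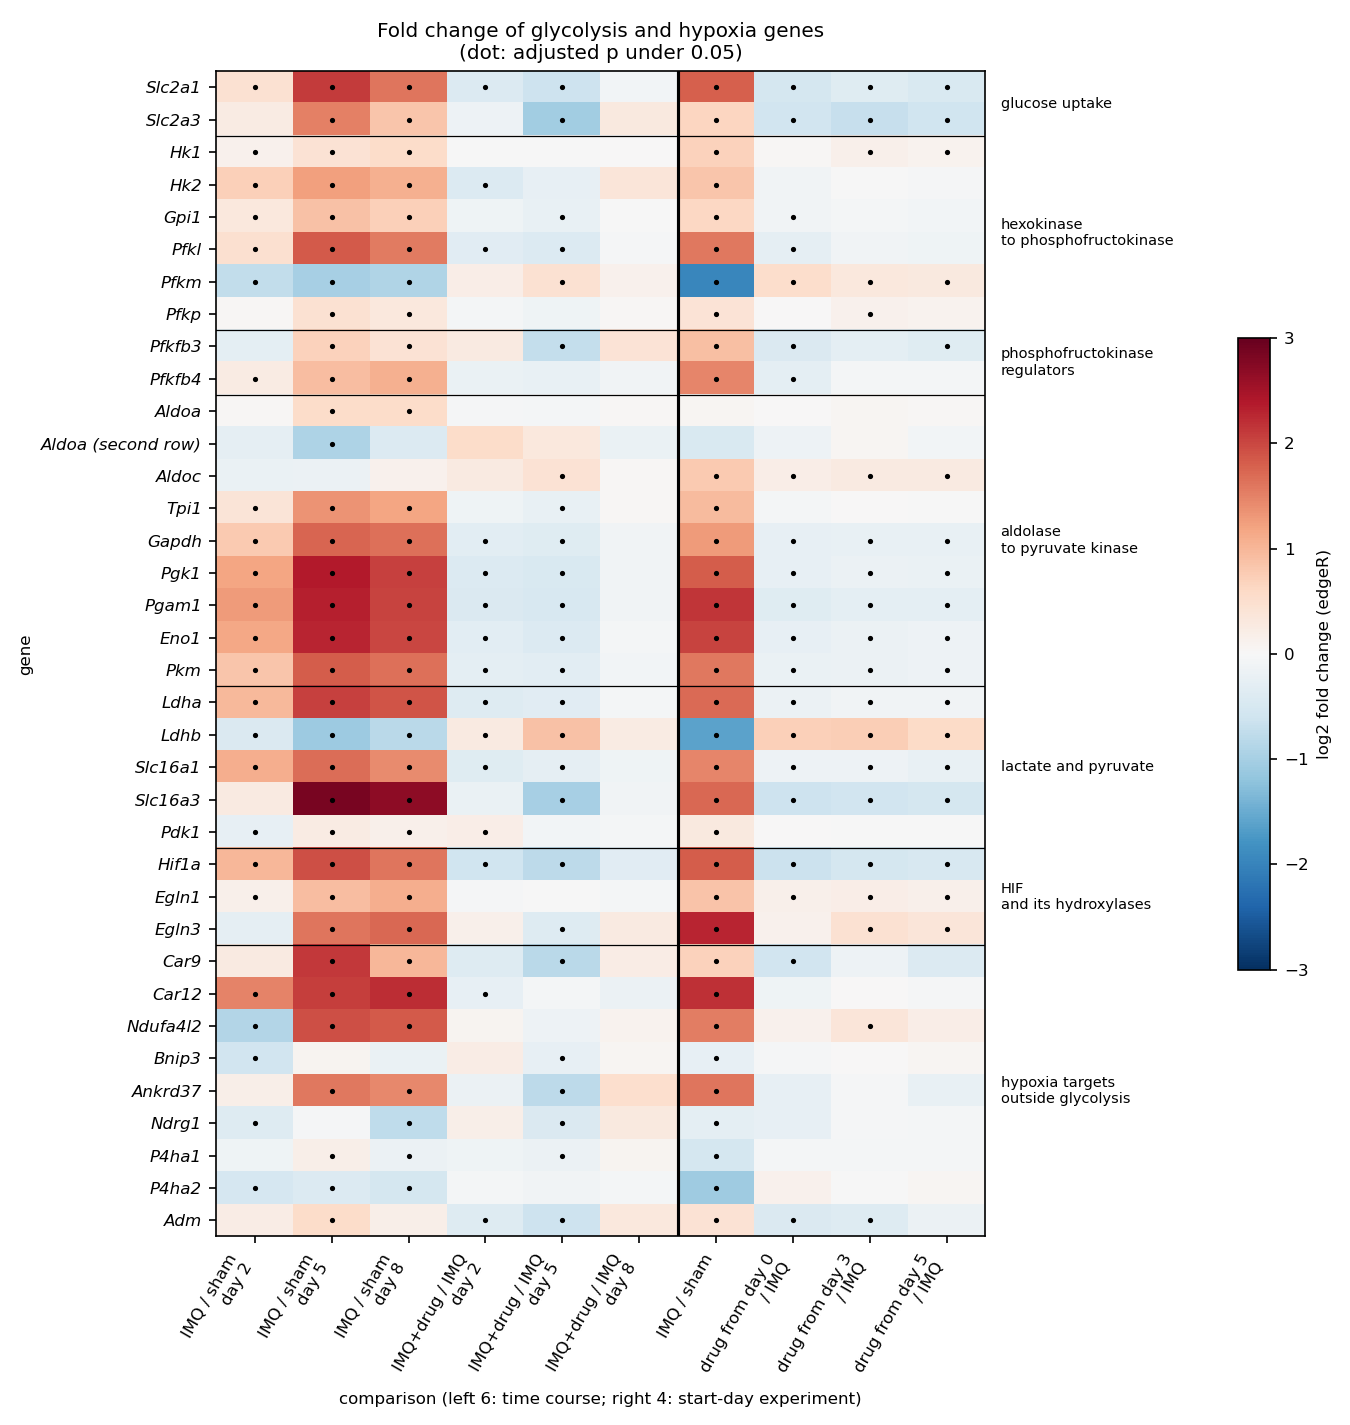
Log2 fold changes (colour, red above and blue below 0) of the 36 rows (ordered by role, named at the right) in 10 comparisons (columns; IMQ is imiquimod), with a dot where the edgeR adjusted p was under 0.05. The imiquimod columns are mostly red from day 5 on, with Pfkm, Ldhb and P4ha2 blue. The drug columns are paler and mixed, with Ldhb red in each. Their called rows are 2 higher and 13 lower at day 2, 3 and 22 at day 5, and 0 and 0 at day 8. From start days 0, 3 and 5 they are 4 and 17, 8 and 12, and 6 and 12.

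Both glucose transporters rose with imiquimod at days 5 and 8. Slc2a1, which encodes GLUT1, the basal glucose transporter of most tissues, had 75.8 to 136 CPM (median 108) in imiquimod ears and 73.7 to 84.4 CPM (median 77.6) in sham ears at day 2, and these groups overlapped (log2 fold change 0.46 ± 0.14, edgeR adjusted p = 0.00521; here and below, ± after a log2 fold change is its SE). At day 5 it had 304 to 388 CPM (median 339.7) in imiquimod ears, against 75.3, 76.3, 80.8 and 84.3 CPM in the 4 sham ears (log2 fold change 2.10 ± 0.17, edgeR adjusted p = 6.16e-15). At day 8 it had 213 to 285 CPM (median 255) in imiquimod ears and 76.8 to 96.7 CPM (median 81.9) in sham ears (log2 fold change 1.60 ± 0.14, edgeR adjusted p = 1.93e-13). The groups were fully apart at days 5 and 8. Slc2a3, which encodes the high-affinity transporter GLUT3 of neurons and leukocytes, had a log2 fold change of 0.24 ± 0.24 at day 2, which did not pass the test (adjusted p = 0.408). It had 6.77 to 15.8 CPM (median 9.49) in imiquimod ears and 3.14, 3.24, 3.68 and 4.02 CPM in sham ears at day 5, with no overlap (log2 fold change 1.51 ± 0.26, edgeR adjusted p = 1.66e-06). Its log2 fold change at day 8 was 0.84 ± 0.24 (edgeR adjusted p = 0.00149).

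Of the 6 enzymes from hexokinase to phosphofructokinase, 4 rose at day 2 and 5 at days 5 and 8, and Pfkm fell each time. The hexokinases trap glucose in the cell by phosphorylating it. Hk2, the inducible hexokinase, had 138 to 177 CPM (median 159) in imiquimod ears and 61.7, 63.1, 68.2 and 75.6 CPM in sham ears at day 5, with no overlap. Its log2 fold changes were 0.71 ± 0.11, 1.23 ± 0.13 and 1.08 ± 0.11 at days 2, 5 and 8 (edgeR adjusted p = 3.15e-07, 4.74e-12 and 5.61e-12). Hk1, the housekeeping hexokinase, moved less, by 0.13 ± 0.041, 0.43 ± 0.046 and 0.55 ± 0.041 (edgeR adjusted p = 0.00593, 6.87e-12 and 6.7e-17). Gpi1, the next enzyme, rose by 0.32 ± 0.05, 0.88 ± 0.057 and 0.72 ± 0.05 (edgeR adjusted p of at most 3.61e-07). All 3 genes were higher in every imiquimod library than in every sham library at days 5 and 8.

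The 3 phosphofructokinases, which catalyse the committed step of glycolysis, went different ways. Pfkl, the liver form, which is also abundant in leukocytes, had 161 to 185 CPM (median 175) in imiquimod ears and 40.3, 48, 49.1 and 58.5 CPM in sham ears at day 5 (log2 fold change 1.83 ± 0.12, edgeR adjusted p = 2.26e-18). Its log2 fold changes were 0.47 ± 0.10 at day 2 and 1.57 ± 0.10 at day 8, and the groups did not overlap at any of the 3 days. Pfkm, the muscle form, had 130.2 to 157 CPM (median 144) in imiquimod ears and 203 to 265 CPM (median 233) in sham ears at day 2 (log2 fold change -0.73 ± 0.10, edgeR adjusted p = 9.26e-09). It had 88.2 to 126 CPM (median 114) in imiquimod ears and 201, 216, 231 and 239 CPM in sham ears at day 5 (log2 fold change -1.0 ± 0.11, edgeR adjusted p = 1.17e-11). At day 8 Pfkm had 82.6 to 108 CPM (median 93.3) in imiquimod ears and 149 to 217 CPM (median 171) in sham ears (log2 fold change -0.91 ± 0.10, edgeR adjusted p = 2.24e-11). Every imiquimod library was below every sham library each time. All 10 skeletal muscle markers also fell with imiquimod at days 2 and 5 and 9 of the 10 at day 8, and their part in the fall of Pfkm was not tested. Pfkp, the platelet form, did not pass at day 2 (0.042 ± 0.054, adjusted p = 0.521) and rose by 0.45 ± 0.061 and 0.31 ± 0.054 at days 5 and 8 (edgeR adjusted p = 4.31e-09 and 1.59e-06).

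The regulators Pfkfb3 and Pfkfb4 make the sugar bisphosphate that activates phosphofructokinase. Pfkfb3 had a log2 fold change of -0.29 ± 0.13 at day 2 that did not pass (adjusted p = 0.0587). At day 5 it had 42.3 to 53.5 CPM (median 51) in imiquimod ears and 27.7, 28.9, 29 and 34.9 CPM in sham ears, with no overlap (log2 fold change 0.70 ± 0.14, edgeR adjusted p = 2.39e-05). At day 8 the change was 0.44 ± 0.13 (edgeR adjusted p = 0.00252). Pfkfb4 rose by 0.26 ± 0.10, 0.92 ± 0.11 and 1.06 ± 0.10 at days 2, 5 and 8 (edgeR adjusted p = 0.0196, 8.57e-11 and 3.44e-14). Its day 2 call was lost without imiquimod library 11 (edgeR adjusted p = 0.152).

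Most of the lower pathway rose. Of the 9 rows from aldolase to pyruvate kinase, 6 rose at day 2 and 7 at days 5 and 8. Pgk1, the kinase of the first ATP-yielding step, had 205 to 328 CPM (median 256) in imiquimod ears and 106 to 127 CPM (median 115) in sham ears at day 2 (log2 fold change 1.17 ± 0.089, edgeR adjusted p = 1.54e-15). At day 5 it had 539 to 577 CPM (median 557) in imiquimod ears and 104, 104, 106 and 113 CPM in sham ears (log2 fold change 2.38 ± 0.11, edgeR adjusted p = 1.69e-23). At day 8 it had 412 to 486 CPM (median 436) in imiquimod ears and 100.3 to 117 CPM (median 107) in sham ears (log2 fold change 2.04 ± 0.091, edgeR adjusted p = 3.1e-24). Pgam1, the mutase after it, had 229 to 369 CPM (median 287) in imiquimod ears and 109 to 135 CPM (median 120.0) in sham ears at day 2 (log2 fold change 1.28 ± 0.094, edgeR adjusted p = 5.41e-16). At day 5 Pgam1 had 574 to 629 CPM (median 609) in imiquimod ears and 114, 116, 124 and 125 CPM in sham ears (log2 fold change 2.34 ± 0.11, edgeR adjusted p = 1.68e-22). Neither gene had an imiquimod library as low as any sham library of the same day.

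Eno1 and Pkm, the enolase and the pyruvate kinase that finish the pathway, had log2 fold changes of 1.15 ± 0.081 and 0.82 ± 0.065 at day 2, 2.29 ± 0.10 and 1.82 ± 0.078 at day 5 and 1.99 ± 0.082 and 1.64 ± 0.067 at day 8 (edgeR adjusted p of at most 3.04e-15). Gapdh, often used as an invariant control, rose by 0.79 ± 0.075, 1.75 ± 0.089 and 1.65 ± 0.076 and had 3029 to 3262 CPM (median 3245) in imiquimod ears against 900.1, 914, 988 and 1009 CPM in sham ears at day 5 (edgeR adjusted p of at most 5.66e-13). Tpi1, the triose phosphate isomerase, rose by 0.39 ± 0.055, 1.35 ± 0.064 and 1.20 ± 0.055 (edgeR adjusted p of at most 2.42e-08). For these 4 genes the groups were apart at all 3 days. Aldoa, the aldolase of muscle and most other tissues, had a log2 fold change of 0.031 ± 0.056 at day 2 (adjusted p = 0.653) and rose by 0.55 ± 0.063 and 0.56 ± 0.056 at days 5 and 8 (edgeR adjusted p = 8.13e-11 and 1.17e-12). Aldoc, the brain form, passed at no day, with changes of -0.19 ± 0.13, -0.18 ± 0.15 and 0.14 ± 0.13 (adjusted p = 0.218, 0.283 and 0.358). The second Aldoa row, which may share reads with the first, had 0.196 to 0.705 CPM (median 0.418) in imiquimod ears and 0.639, 0.644, 0.671 and 1.12 CPM in sham ears at day 5. Its fall there (log2 fold change -0.92 ± 0.41, edgeR adjusted p = 0.0432) was lost without sham library 20 or 21 or imiquimod library 26, 28 or 29 (adjusted p = 0.0502 to 0.179).

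Ldha and Slc16a1 rose and Ldhb fell at each day, and Slc16a3 rose at days 5 and 8. Ldha, the subunit that favours lactate, had 543 to 853 CPM (median 666) in imiquimod ears and 323 to 394 CPM (median 346) in sham ears at day 2 (log2 fold change 0.97 ± 0.076, edgeR adjusted p = 1.48e-15). It had 1333 to 1417 CPM (median 1359.5) in imiquimod ears and 321, 325, 328 and 334 CPM in sham ears at day 5 (log2 fold change 2.06 ± 0.091, edgeR adjusted p = 1.73e-24). Its log2 fold change at day 8 was 1.88 ± 0.078. Ldhb, the subunit of oxidative tissues that favours pyruvate, had 49.9 to 66.6 CPM (median 59.4) in imiquimod ears and 76.2 to 84.4 CPM (median 79.96) in sham ears at day 2 (log2 fold change -0.44 ± 0.074, edgeR adjusted p = 1.15e-06). It had 30.7 to 42.2 CPM (median 38.1) in imiquimod ears and 73.9, 76.1, 77.8 and 89.3 CPM in sham ears at day 5 (log2 fold change -1.09 ± 0.082, edgeR adjusted p = 8.82e-17). At day 8 Ldhb had 38.4 to 49.3 CPM (median 46.1) in imiquimod ears and 68.6 to 84.6 CPM (median 78.6) in sham ears (log2 fold change -0.80 ± 0.075, edgeR adjusted p = 1.43e-13). The subunits moved in opposite directions at every day and neither had overlapping groups.

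Slc16a3, which encodes the lactate exporter MCT4, did not pass at day 2 (12.1 to 33.6 CPM (median 17.7) in imiquimod ears and 14.4 to 19.6 CPM (median 15.2) in sham ears, adjusted p = 0.27). At day 5 it had 90.2 to 133 CPM (median 106) in imiquimod ears and 10.6, 16.5, 16.9 and 17.4 CPM in sham ears (log2 fold change 2.84 ± 0.24, edgeR adjusted p = 4.89e-14). At day 8 it had 42.9 to 69.7 CPM (median 64) in imiquimod ears and 7.37 to 11.3 CPM (median 9.70) in sham ears (log2 fold change 2.69 ± 0.21, edgeR adjusted p = 5.18e-15). These were the highest log2 fold changes of the called members at days 5 and 8, and the groups were apart. Slc16a1, which encodes the bidirectional carrier MCT1, was already up at day 2, with log2 fold changes of 1.09 ± 0.10, 1.68 ± 0.11 and 1.41 ± 0.10 at days 2, 5 and 8 (edgeR adjusted p = 3.88e-13, 1.14e-17 and 2.31e-17). Pdk1, the kinase that keeps pyruvate out of the mitochondrial oxidation, fell by 0.24 on the log2 scale at day 2 (SE 0.07, edgeR adjusted p = 0.00186) and rose at day 5 (log2 fold change 0.24 ± 0.076, edgeR adjusted p = 0.00401). Its rise at day 8 (log2 fold change 0.16 ± 0.068, edgeR adjusted p = 0.0305) was lost without sham library 40 or 41 or imiquimod library 46 or 47 (adjusted p = 0.0552 to 0.0960).

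**Figure D3:**
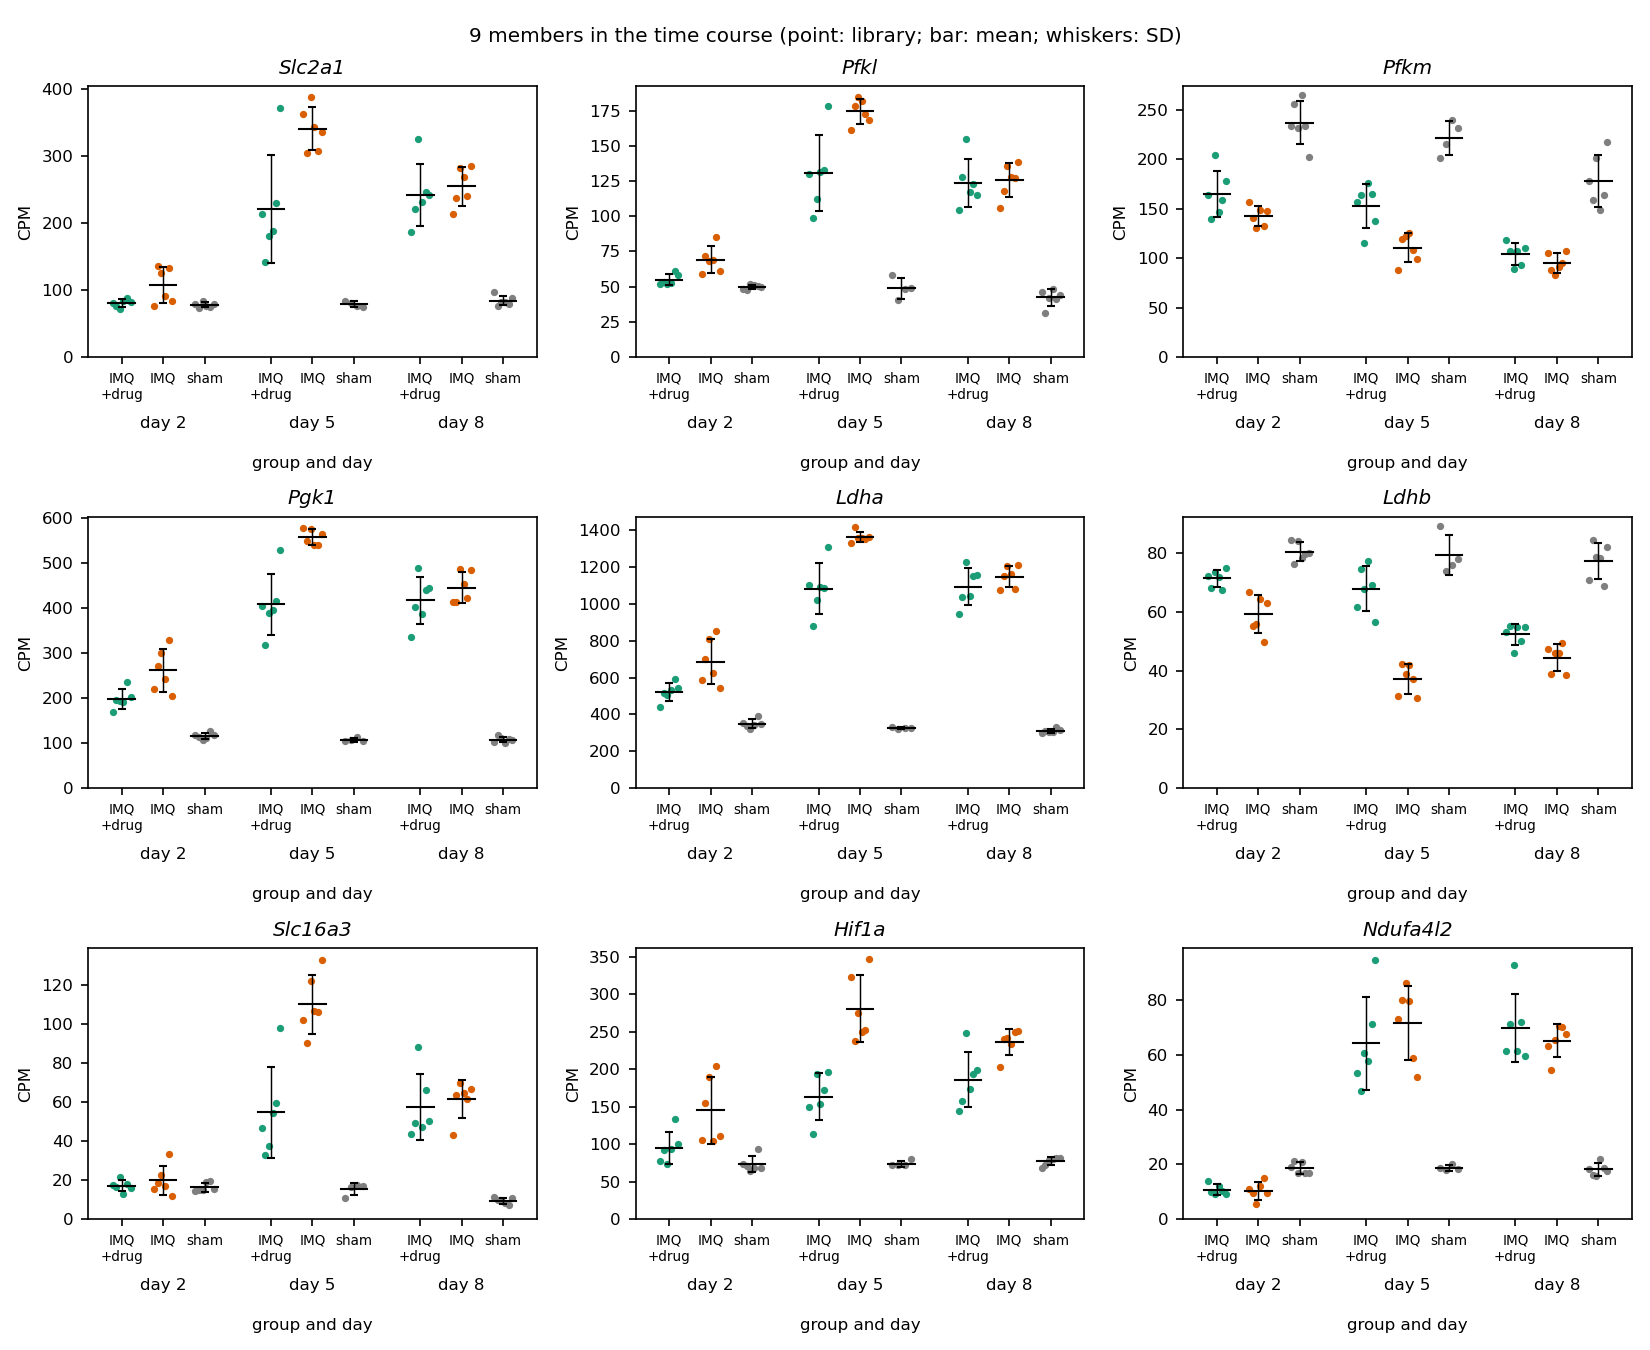
CPM (vertical axes, each starting at 0) of 9 members in every library of the time course, by group (IMQ is imiquimod) and day, with points for libraries and bars for the mean and SD. Slc2a1, Pfkl, Pgk1, Ldha, Slc16a3, Hif1a and Ndufa4l2 lie above sham in all imiquimod libraries at day 5, and Pfkm and Ldhb lie below it.

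Hif1a, the oxygen-regulated subunit of HIF-1, rose at the RNA level at each day. It had 104 to 205 CPM (median 133) in imiquimod ears and 64.3 to 94 CPM (median 69.4) in sham ears at day 2 (log2 fold change 0.99 ± 0.15, edgeR adjusted p = 2.35e-07). It had 238 to 347 CPM (median 264) in imiquimod ears and 71.6, 72.2, 72.3 and 79.9 CPM in sham ears at day 5 (log2 fold change 1.92 ± 0.18, edgeR adjusted p = 2.92e-13). At day 8 Hif1a had 202 to 251 CPM (median 241) in imiquimod ears and 68.6 to 81.7 CPM (median 79.4) in sham ears (log2 fold change 1.61 ± 0.15, edgeR adjusted p = 5.28e-13). No imiquimod library was as low as any sham library of its day, although HIF-1 is mainly controlled as a protein, which was not measured. The prolyl hydroxylases Egln1 and Egln3, which mark HIF for destruction and are themselves HIF targets, also rose by day 5. Egln1 changed by 0.16 ± 0.061, 0.92 ± 0.07 and 1.09 ± 0.062 at days 2, 5 and 8 (edgeR adjusted p = 0.0207, 1.34e-16 and 3.38e-21). Its day 2 call was lost without sham library 5 or imiquimod library 10 or 11 (adjusted p = 0.0531 to 0.0701). Egln3 had 29.97 to 46.6 CPM (median 35.7) in imiquimod ears and 36.9 to 52.6 CPM (median 44.6) in sham ears at day 2 (adjusted p = 0.104). At day 5 it had 104 to 204 CPM (median 153) in imiquimod ears and 42.3, 50.1, 50.4 and 56.7 CPM in sham ears (log2 fold change 1.60 ± 0.16, edgeR adjusted p = 1.57e-12). At day 8 the log2 fold change of Egln3 was 1.72 ± 0.14 (edgeR adjusted p = 3.41e-15).

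The 9 hypoxia targets outside glycolysis did not move as 1 block: 1 rose and 4 fell at day 2, 6 rose and 1 fell at day 5, and 4 rose and 3 fell at day 8. Car12, a membrane carbonic anhydrase that handles acid at the cell surface, was the member with the highest log2 fold change at day 2, with 101 to 136 CPM (median 126) in imiquimod ears and 36.6 to 50.8 CPM (median 44) in sham ears (log2 fold change 1.48 ± 0.08, edgeR adjusted p = 4.72e-20). It had 192 to 229.5 CPM (median 213) in imiquimod ears and 42.5 to 49.4 CPM (median 45.9) in sham ears at day 8 (log2 fold change 2.22 ± 0.081, edgeR adjusted p = 1.44e-27). Its log2 fold change was 2.08 ± 0.094 at day 5, and the groups never overlapped. Car9, its relative and a standard hypoxia marker, was low throughout, with 2.54 to 4.08 CPM (median 2.72) in imiquimod ears and 0.417, 0.461, 0.748 and 1.12 CPM in sham ears at day 5 (log2 fold change 2.12 ± 0.33, edgeR adjusted p = 1.23e-07). At day 2 Car9 had a log2 fold change of 0.27 ± 0.29 (adjusted p = 0.44), and at day 8 one of 0.99 ± 0.30 (edgeR adjusted p = 0.00294).

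Ndufa4l2, which lowers mitochondrial complex I activity in hypoxia, fell first and then rose. It had 5.37 to 15.1 CPM (median 10.2) in imiquimod ears and 16.8 to 21.3 CPM (median 18.1) in sham ears at day 2, with every imiquimod library lower (log2 fold change -0.87 ± 0.16, edgeR adjusted p = 1.14e-05). It had 52 to 86.1 CPM (median 76.4) in imiquimod ears and 17.8, 18.2, 18.8 and 20.02 CPM in sham ears at day 5, with every imiquimod library higher (log2 fold change 1.94 ± 0.17, edgeR adjusted p = 1.12e-13). Its log2 fold change was 1.85 ± 0.15 at day 8. Bnip3, a mitophagy receptor, had 31 to 41.5 CPM (median 37.9) in imiquimod ears and 53.1 to 64 CPM (median 54.4) in sham ears at day 2, without overlap (log2 fold change -0.58 ± 0.10, edgeR adjusted p = 2.42e-06). Its changes of 0.08 ± 0.11 and -0.20 ± 0.10 at days 5 and 8 did not pass (adjusted p = 0.527 and 0.0789). Ankrd37, an ankyrin repeat protein known as a HIF target, did not pass at day 2 (adjusted p = 0.558) and rose by 1.58 ± 0.25 and 1.44 ± 0.23 at days 5 and 8 (edgeR adjusted p = 2.98e-07 and 2.44e-07). Adm, the vessel-relaxing peptide adrenomedullin, passed only at day 5 among the 3 days (log2 fold change 0.55 ± 0.15, edgeR adjusted p = 0.00138), with adjusted p = 0.155 at day 2 and 0.269 at day 8.

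Ndrg1, a stress-responsive gene of differentiating epithelium, had 92.3 to 109.7 CPM (median 100.4) in imiquimod ears and 155 to 193 CPM (median 174) in sham ears at day 8, without overlap (log2 fold change -0.77 ± 0.09, edgeR adjusted p = 1.57e-10). It had fallen at day 2 (-0.39 ± 0.089, edgeR adjusted p = 0.000189), and its change at day 5 did not pass (-0.024 ± 0.10, adjusted p = 0.837). P4ha1 and P4ha2 are collagen prolyl hydroxylases. P4ha2 fell at all 3 days, by 0.51, 0.40 and 0.53 on the log2 scale (SE 0.08, 0.09 and 0.08, edgeR adjusted p = 4.49e-07, 8.77e-05 and 1.83e-07), without overlap. P4ha1 had changes of -0.14 ± 0.067, 0.17 ± 0.074 and -0.18 ± 0.068 (adjusted p = 0.0691, 0.0391 and 0.0157). The day 5 call of P4ha1 was lost without sham library 21 or 22 or imiquimod library 25, 27 or 30 (adjusted p = 0.0594 to 0.155), and the day 8 call without sham library 40 or 41 or imiquimod library 44 or 47 (0.0523 to 0.0553). Its day 5 change was -0.027 when libraries were scaled by their totals alone (adjusted p = 0.756).

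For 31 of the 36 rows, the response to imiquimod was not the same at days 2, 5 and 8 (edgeR F test of the interaction), where 33.4% of all tested genes passed that test. It was higher at day 5 than at day 2 for 30 rows and lower for 1, Ldhb, where 14.4% and 15.2% of all genes were higher and lower. From day 5 to day 8 the effect was higher for 0 rows and lower for 2, where 2.16% and 1.75% of all genes were. These 2 were Ndrg1, whose effect dropped by 0.75 on the log2 scale (SE 0.13, edgeR adjusted p = 0.000982), and P4ha1, whose effect dropped by 0.35 (SE 0.10, edgeR adjusted p = 0.0351). The smallest adjusted p values among days were those of Ndufa4l2 (3.91e-13), Tpi1 (8.93e-13) and Egln1 (2.09e-11). Between days 2 and 5 the effect grew by 2.81 ± 0.24 for Ndufa4l2, by 2.57 ± 0.31 for Slc16a3 and by 1.87 ± 0.21 for Egln3 (edgeR adjusted p = 1.44e-11, 5.73e-08 and 6.97e-09). The 5 rows whose effect did not pass the test among days were Pfkm, the second Aldoa row, Aldoc, P4ha2 and Adm.

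Sham ears themselves differed among days for 3 rows, Pfkm, Aldoa and Slc16a3 (edgeR adjusted p = 0.0122, 0.0211 and 0.0426), where 5.52% of all genes did. Their mean levels at days 2, 5 and 8 were 237 ± 21.7 CPM, 222 ± 17.2 CPM and 178 ± 26.6 CPM for Pfkm and 16.4 ± 2.34 CPM, 15.3 ± 3.17 CPM and 9.49 ± 1.51 CPM for Slc16a3 (SD, n = 6, 4 and 6). The day 8 sham ears were the low ones, and summed skeletal muscle markers spanned 2759 to 5426 CPM there, against 5181 to 6633 CPM in sham ears at day 2. The number of such rows fell to 0 without sham library 38 of day 8 and to 1 without library 40 or 41. All 3 adjusted p values then lay above 0.05 without library 38 (that of Pfkm at 0.0574). Slc16a3 lost its call in 12 of the 16 fits without 1 sham library (adjusted p = 0.0503 to 0.104).

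Imiquimod in the start-day experiment, an independent set of ears, gave 28 rows higher and 6 lower than sham, where 38.1% and 39.9% of all genes were, and a median log2 fold change of 0.88 for the rows and -0.02 for all genes. Egln3 had 132 to 216 CPM (median 169.7) in imiquimod ears and 31.7 to 37.5 CPM (median 35.8) in sham ears (log2 fold change 2.29 ± 0.11, edgeR adjusted p = 3.45e-17). Car12 had 157 to 179 CPM (median 164) in imiquimod ears and 32 to 42.4 CPM (median 36) in sham ears (log2 fold change 2.20 ± 0.061, edgeR adjusted p = 1.13e-24). Pgam1 had 465 to 533 CPM (median 497) in imiquimod ears and 103 to 119 CPM (median 115) in sham ears (log2 fold change 2.15 ± 0.054, edgeR adjusted p = 3.97e-26). These 3 had the highest log2 fold changes and fully separate groups. Pfkm had the lowest, with 63.5 to 79.3 CPM (median 75) in imiquimod ears and 270.1 to 304 CPM (median 288) in sham ears (log2 fold change -1.96 ± 0.062, edgeR adjusted p = 4.85e-23). Summed skeletal muscle markers were 1478 to 1895 CPM and 6644 to 7028 CPM in these groups. Ldhb had 25.7 to 32.3 CPM (median 29.9) in imiquimod ears and 82 to 98.2 CPM (median 85.6) in sham ears (log2 fold change -1.61 ± 0.069, edgeR adjusted p = 6.23e-20). P4ha2 had 14.7 to 20.3 CPM (median 16.9) in imiquimod ears and 32.9 to 38.4 CPM (median 35.3) in sham ears (log2 fold change -1.06 ± 0.061, edgeR adjusted p = 4.99e-17). The other 3 that fell were Bnip3, Ndrg1 and P4ha1, with log2 fold changes of -0.25, -0.30 and -0.53. Aldoc, which passed at no day of the time course, rose here (log2 fold change 0.79 ± 0.068, edgeR adjusted p = 1.37e-12), whereas Aldoa did not pass (0.066 ± 0.032, adjusted p = 0.0566). Scaled by library totals alone, Aldoa fell by 0.15 on the log2 scale (edgeR adjusted p = 8.61e-05).

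Values in the start-day experiment stand beside those of the time course at day 8 as follows. Slc2a1, Pgk1, Ldha and Hif1a had log2 fold changes of 1.79 ± 0.088, 1.82 ± 0.054, 1.70 ± 0.042 and 1.81 ± 0.072 here and 1.60 ± 0.14, 2.04 ± 0.091, 1.88 ± 0.078 and 1.61 ± 0.15 at day 8. The falls of Pfkm, Ldhb and P4ha2, at -1.96 ± 0.062, -1.61 ± 0.069 and -1.06 ± 0.061 here, compare with -0.91 ± 0.10, -0.80 ± 0.075 and -0.53 ± 0.082 there. Aldoc and Aldoa had 0.79 ± 0.068 and 0.066 ± 0.032 here and 0.14 ± 0.13 and 0.56 ± 0.056 there. Slc16a3 had 1.72 ± 0.11 here and 2.69 ± 0.21 there, with sham levels of 17.6 to 23.4 CPM (median 22.1) here and 7.37 to 11.3 CPM (median 9.70) there. The difference between the experiments was not tested, since they were fitted apart.

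The CCR6 inhibitor was compared at each day by setting ears with imiquimod and the drug against ears with imiquimod alone. At day 2, 2 rows were higher with the drug and 13 lower, where 6.90% and 9.61% of all genes were, with a median log2 fold change of -0.14 for the rows and 0.01 for all genes. At day 5, 3 were higher and 22 lower, where 18.3% and 17.2% of all genes were, with medians of -0.26 and 0.02. At day 8, 0 were higher and 0 lower, where 1.22% and 0.335% of all genes were. At day 8, 9 rows had an unadjusted p under 0.05, as did 2679 of all 18780 genes. Limma voom and DESeq2 each called 4 rows higher, among 533 and 408 of all genes. Hk2, Pfkfb3 and Ldhb were called by both, Ankrd37 by limma voom and Ndrg1 by DESeq2. The comparisons at each day use the imiquimod libraries that were also set against sham, so the drug and imiquimod values of a gene are not independent.

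The day 2 calls were not stable. Imiquimod libraries 9 and 11 had the highest medians over the members in their group, so leaving them out is tied to the outcome. Without them, 0 rows were called (adjusted p of the 15 rows 0.108 to 0.450), 7 of all 18741 genes were called, and the median of the rows was -0.06. A fit to the compared groups alone called 0 of all 16355 genes, with a median of -0.15 for the rows. Summed neutrophil markers were 44.2 to 203 CPM with the drug and 156 to 2196 CPM without it. Summed activated keratinocyte markers were 891 to 5253 CPM with the drug and 3365 to 14204 CPM without it. Of the 6 proliferation markers 5 were lower with the drug, and of the 10 macrophage and monocyte markers 1 was. The part of these lists in the results was not tested. With that limit, Slc2a1 had 71.6 to 88.5 CPM (median 81.7) with the drug and 75.8 to 136 CPM (median 108) without it (log2 fold change -0.41 ± 0.14, edgeR adjusted p = 0.0407). Hif1a had 73.5 to 134 CPM (median 93) with the drug and 104 to 205 CPM (median 133) without it (log2 fold change -0.61 ± 0.15, edgeR adjusted p = 0.00451), the lowest log2 fold change of the called rows. Both genes overlapped between the groups. Pgam1 had 168 to 257 CPM (median 224) with the drug and 229 to 369 CPM (median 287) without it (log2 fold change -0.44 ± 0.092, edgeR adjusted p = 0.00141).

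In the other direction at day 2, Ldhb had 67.5 to 74.8 CPM (median 72.1) with the drug and 49.9 to 66.6 CPM (median 59.4) without it, with no overlap (log2 fold change 0.27 ± 0.074, edgeR adjusted p = 0.00992). Pdk1 had 62.3 to 81.7 CPM (median 70.03) with the drug and 53.4 to 73 CPM (median 61.9) without it (log2 fold change 0.20 ± 0.068, edgeR adjusted p = 0.0317). Car12, on the lower side, had 71.4 to 122 CPM (median 109) with the drug and 101 to 136 CPM (median 126) without it (log2 fold change -0.24 ± 0.078, edgeR adjusted p = 0.0273). Of the 15 calls, 6 were lost on leaving out some single library. Adm was lost in 10 of the 12 such fits (adjusted p = 0.0535 to 0.128), Slc2a1 in 7 (0.0528 to 0.134) and Car12 in 5 (0.0683 to 0.141). Pdk1 was lost in 5 (0.0608 to 0.133), Pfkl without imiquimod library 11 or drug library 13 (0.0528 and 0.0893) and Hk2 without imiquimod library 11 (0.0577).

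At day 5 both glucose transporters, most enzymes of the lower pathway and most hypoxia targets were lower with the drug, and Ldhb was higher. Slc2a1 had 141 to 372 CPM (median 201) with the drug and 304 to 388 CPM (median 339.7) without it (log2 fold change -0.63 ± 0.14, edgeR adjusted p = 0.000455). The groups overlapped only through library 36 with the drug, which reached 372 CPM. Slc2a3 had 3.69 to 8.53 CPM (median 3.96) with the drug and 6.77 to 15.8 CPM (median 9.49) without it (log2 fold change -1.05 ± 0.22, edgeR adjusted p = 0.000241), the lowest log2 fold change of the called rows. Slc2a3 overlapped through the same library, at 8.53 CPM. Of the 6 enzymes from hexokinase to phosphofructokinase, Gpi1 and Pfkl fell (-0.21 ± 0.05 and -0.42 ± 0.10, edgeR adjusted p = 0.00073 and 0.000744). Pfkm was higher, with 115 to 176 CPM (median 160.3) with the drug and 88.2 to 126 CPM (median 114) without it (log2 fold change 0.46 ± 0.10, edgeR adjusted p = 0.000209). Summed skeletal muscle markers were 2259 to 3809 CPM with the drug and 1834 to 2981 CPM without it, 7 of the 10 rose, and their part in the result for Pfkm was not tested. Hk1, Hk2 and Pfkp did not pass (adjusted p = 0.698, 0.0822 and 0.0661). Pfkfb3 fell (log2 fold change -0.72 ± 0.13, edgeR adjusted p = 1.62e-05), and Pfkfb4 did not pass (adjusted p = 0.0615).

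Among the 9 rows from aldolase to pyruvate kinase, 6 fell and 1 rose with the drug at day 5. Pgk1 had 319 to 528 CPM (median 399) with the drug and 539 to 577 CPM (median 557) without it (log2 fold change -0.45 ± 0.087, edgeR adjusted p = 7.05e-05). Pgam1 had 335 to 564 CPM (median 426) with the drug and 574 to 629 CPM (median 609) without it (log2 fold change -0.49 ± 0.092, edgeR adjusted p = 4.1e-05). Every library with the drug was below every library without it for both genes, as for Eno1 (-0.41 ± 0.079) and Pkm (-0.33 ± 0.065). Tpi1 and Gapdh fell by 0.22 and 0.36 on the log2 scale (SE 0.05 and 0.07, edgeR adjusted p = 0.00103 and 0.000147). Aldoc was the 1 that rose, with 19.6 to 31.3 CPM (median 25.7) with the drug and 12.7 to 23.9 CPM (median 19.8) without it (log2 fold change 0.42 ± 0.13, edgeR adjusted p = 0.00986). Aldoa did not pass (adjusted p = 0.455). Even at their lowest, the libraries with the drug held 319 CPM of Pgk1, above the 4 sham libraries at 104, 104, 106 and 113 CPM.

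The lactate dehydrogenases again moved apart. Ldha had 883 to 1309.8 CPM (median 1087) with the drug and 1333 to 1417 CPM (median 1359.5) without it (log2 fold change -0.33 ± 0.075, edgeR adjusted p = 0.000429). Ldhb had 56.6 to 77.3 CPM (median 68.5) with the drug and 30.7 to 42.2 CPM (median 38.1) without it (log2 fold change 0.87 ± 0.075, edgeR adjusted p = 1.71e-11). Ldhb had the highest log2 fold change of the called rows, and its groups did not overlap. The libraries with the drug reached into the range of the 4 sham libraries at 73.9, 76.1, 77.8 and 89.3 CPM. Slc16a3 had 32.9 to 97.6 CPM (median 50.6) with the drug and 90.2 to 133 CPM (median 106) without it, overlapping through library 36 at 97.6 CPM (log2 fold change -1.01 ± 0.19, edgeR adjusted p = 6.33e-05). Slc16a1 fell by 0.27 on the log2 scale (SE 0.10, edgeR adjusted p = 0.0244) and Pdk1 did not pass (adjusted p = 0.31).

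Hif1a had 113 to 196 CPM (median 163) with the drug and 238 to 347 CPM (median 264) without it at day 5, without overlap (log2 fold change -0.78 ± 0.15, edgeR adjusted p = 4.59e-05). Egln3 fell (-0.38 ± 0.13, edgeR adjusted p = 0.0189) and Egln1 did not pass (-0.016 ± 0.06, adjusted p = 0.868). Of the 9 targets outside glycolysis, 6 fell: Car9, Bnip3, Ankrd37, Ndrg1, P4ha1 and Adm. Car9 had 1.26 to 2.84 CPM (median 1.51) with the drug and 2.54 to 4.08 CPM (median 2.72) without it (log2 fold change -0.80 ± 0.26, edgeR adjusted p = 0.0139). Car12, the carbonic anhydrase with the higher imiquimod response at day 2, did not pass (-0.059 ± 0.077, adjusted p = 0.59). Ndufa4l2 and P4ha2 did not pass either (adjusted p = 0.402 and 0.357). Summed neutrophil markers were 343 to 4554 CPM with the drug and 5027 to 7438 CPM without it. Summed activated keratinocyte markers were 5022 to 18240.2 CPM with the drug and 22573 to 31849 CPM without it. All 10 macrophage and monocyte markers were lower with the drug, at 555 to 1276 CPM, against 974 to 1611 CPM without it. Among the other lists, 4 of 6 proliferation, all 6 fibroblast and 4 of 6 endothelial markers were lower. All 6 sebaceous gland, all 6 adipocyte and all 6 Schwann cell markers were higher. So were 5 of 6 suprabasal keratinocyte and 4 of 6 cartilage markers. Within the drug group, library 32 was lowest and library 36 highest in summed neutrophil, activated keratinocyte, macrophage and monocyte, proliferation, fibroblast and endothelial markers. Library 36 was lowest and library 32 highest in summed sebaceous gland, adipocyte, Schwann cell and suprabasal keratinocyte markers. For cartilage markers the lowest and highest were libraries 31 and 34. The part of these lists in the results was not tested. Without the high library 36, 3 rows were higher and 25 lower. The calls of Bnip3, Egln3, P4ha1 and Slc16a1 were lost without drug library 32 and, for some of them, without drug library 33 or 35 or imiquimod library 25, 27, 28 or 30 (adjusted p over these fits 0.0526 to 0.183).

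The drug effect differed among days 2, 5 and 8 for 9 rows, where 7.99% of all genes did. Pfkfb3 gave the smallest adjusted p (0.000253), with drug effects of 0.28 ± 0.13, -0.72 ± 0.13 and 0.42 ± 0.13 at days 2, 5 and 8. Ldhb followed (edgeR adjusted p = 0.00028), with 0.27 ± 0.074, 0.87 ± 0.075 and 0.24 ± 0.076. Ndrg1 came next (edgeR adjusted p = 0.000824), with 0.17 ± 0.089, -0.43 ± 0.089 and 0.28 ± 0.09. Pfkfb3 and Ndrg1 were lower with the drug at day 5, and their effects at days 2 and 8 had the opposite sign without passing the test. At day 8 Pfkfb3 had 33.1 to 60.1 CPM (median 40.9) with the drug and 21.9 to 36.6 CPM (median 32) without it. Ndrg1 had 111 to 176 CPM (median 113) with the drug and 92.3 to 109.7 CPM (median 100.4) without it at that day. The other 6 rows were Hk2, Adm, Slc2a3, Ankrd37, Egln3 and Slc16a3. Slc16a3 lost its call in 20 of the fits without 1 library (adjusted p = 0.0516 to 0.101) and Egln3 in 10 (0.0506 to 0.0829). The number of rows that differed was 21 without drug library 36 of day 5, 16 without drug library 51 of day 8 and 14 without imiquimod library 12 of day 2.

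In the start-day experiment the drug was compared with imiquimod alone for each start day, and all 3 comparisons share the same 6 imiquimod libraries. From day 0, 4 rows were higher and 17 lower, where 18.2% and 16.9% of all genes were. From day 3, 8 were higher and 12 lower, where 18% and 16.4% of all genes were. From day 5, 6 were higher and 12 lower, where 15% and 12.7% were. The median log2 fold change of the rows was -0.15, -0.04 and -0.08 for start days 0, 3 and 5, while that of all genes was 0.011, 0.0083 and 0.0086. No called row reached a log2 fold change of 1 in size in any of them, where 577, 478 and 361 of all genes did. Summed neutrophil markers were 2066 to 4733 CPM, 3543 to 5057 CPM and 1899 to 6059 CPM for the 3 start days and 7164 to 9606 CPM in imiquimod ears. Summed activated keratinocyte markers were 11618 to 15993 CPM, 11882 to 16284 CPM and 9929 to 21062 CPM for start days 0, 3 and 5 and 25265 to 30896 CPM in imiquimod ears, with 8, 6 and 5 of the 8 lower. Of the 10 macrophage and monocyte markers, 8, 7 and 3 were lower, of the 6 proliferation markers 3, 5 and 4 were lower, and all 6 sebaceous gland markers were higher each time. The part of these lists in the results was not tested.

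**Figure D4:**
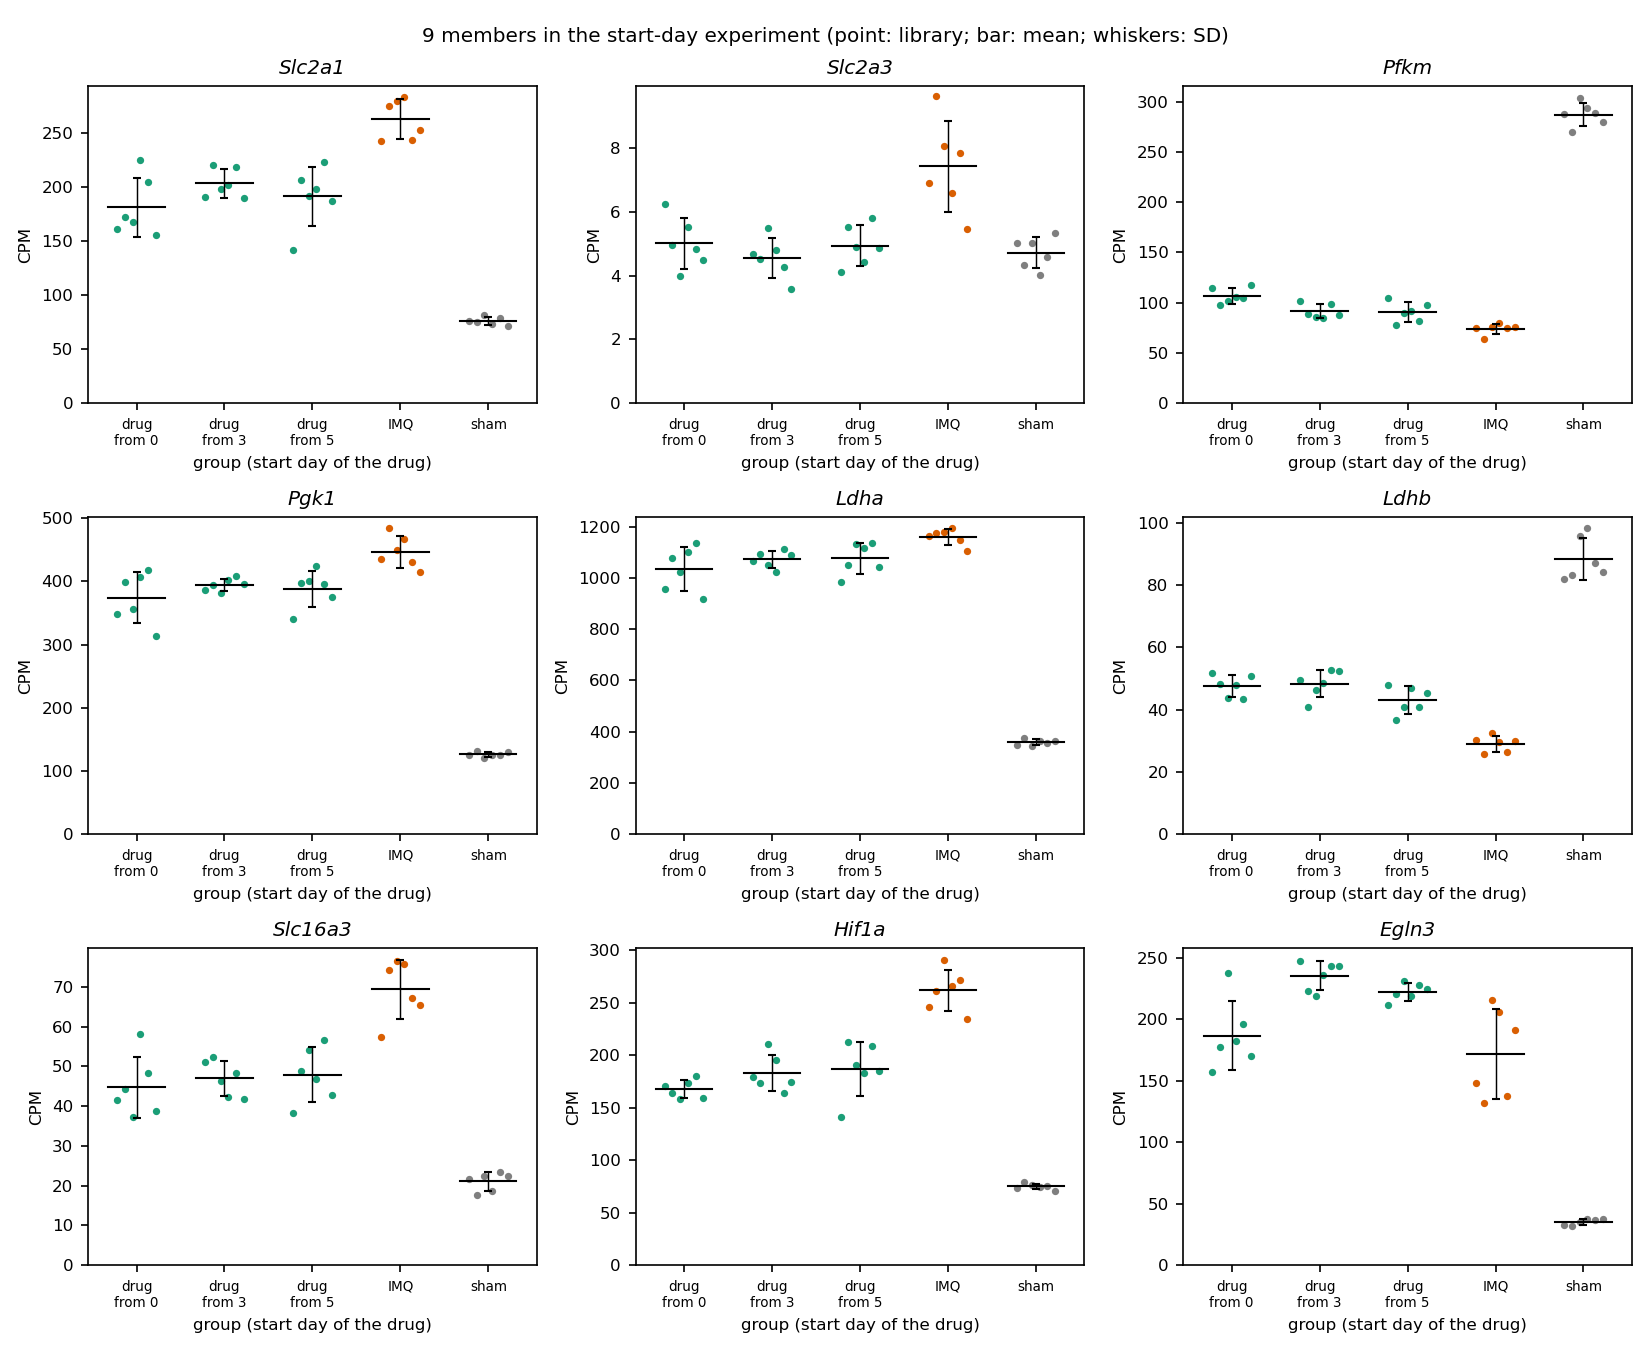
CPM (vertical axes, each starting at 0) of 9 members in every library of the start-day experiment, by group (IMQ is imiquimod), with points for libraries and bars for the mean and SD. The groups given the drug lie close to one another, Hif1a is below imiquimod alone in all of their libraries, and Ldhb is above imiquimod alone in all of them.

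Hif1a had 159 to 180.4 CPM (median 167) with the drug from day 0, 164 to 211 CPM (median 177) from day 3 and 141 to 213 CPM (median 188) from day 5, against 235 to 291 CPM (median 264) in imiquimod ears. No library with the drug reached the imiquimod libraries. The log2 fold changes were -0.64 ± 0.07, -0.52 ± 0.07 and -0.49 ± 0.07 (edgeR adjusted p = 1.02e-07, 2.31e-06 and 1.11e-05). Slc16a3 had 37.2 to 58.1 CPM (median 43), 41.9 to 52.3 CPM (median 47.3) and 38.2 to 56.6 CPM (median 47.9) for the 3 start days and 57.5 to 76.4 CPM (median 70.7) in imiquimod ears. Its log2 fold changes were -0.63 ± 0.10, -0.56 ± 0.10 and -0.53 ± 0.10 (edgeR adjusted p of at most 0.000265). Slc2a3 had log2 fold changes of -0.57 ± 0.12, -0.70 ± 0.12 and -0.59 ± 0.12 (edgeR adjusted p of at most 0.000401), with 3.58 to 5.5 CPM (median 4.61) from day 3 and 5.47 to 9.65 CPM (median 7.38) in imiquimod ears. Slc2a1 had changes of -0.54 ± 0.085, -0.37 ± 0.085 and -0.46 ± 0.085 (edgeR adjusted p of at most 0.00115) and no overlap with imiquimod alone for any start day.

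Of the 9 rows from aldolase to pyruvate kinase, Gapdh, Pgk1, Pgam1, Eno1 and Pkm fell for each start day, and Aldoc rose. Their changes were between -0.36 (Pgam1 from day 0) and -0.16 (Eno1 from day 5) on the log2 scale. Ldha fell by 0.17, 0.11 and 0.11 (SE 0.04 each, edgeR adjusted p = 0.0019, 0.0291 and 0.0453). Its call was lost without imiquimod library 9 or 10 or drug library 21 or 22 for start day 3 (adjusted p = 0.0520 to 0.0725) and in 8 fits without 1 library for start day 5 (0.0540 to 0.139). Slc16a1 fell by 0.15, 0.16 and 0.22 (SE 0.06 each, edgeR adjusted p = 0.0309, 0.0245 and 0.00282). Its calls for start days 0 and 3 were each lost in 4 such fits (0.0506 to 0.0898). Pdk1 passed for no start day (adjusted p = 0.957, 0.848 and 0.891).

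Ldhb rose for each start day, with 43.5 to 51.6 CPM (median 48), 40.8 to 52.6 CPM (median 49.1) and 36.5 to 47.8 CPM (median 43.2) for start days 0, 3 and 5 and 25.7 to 32.3 CPM (median 29.9) in imiquimod ears. The groups did not overlap. The changes were 0.71 ± 0.07, 0.74 ± 0.069 and 0.57 ± 0.07 (edgeR adjusted p = 1.82e-08, 1.68e-08 and 1.59e-06), the highest of the called rows each time. Pfkm had 97.1 to 118 CPM (median 105), 84.8 to 102 CPM (median 88.4) and 77.6 to 105 CPM (median 90.4) and 63.5 to 79.3 CPM (median 75) in imiquimod ears. Its changes were 0.53 ± 0.061, 0.31 ± 0.061 and 0.29 ± 0.061 (edgeR adjusted p of at most 0.000586). Skeletal muscle markers rose beside it, 10, 7 and 8 of 10 for start days 0, 3 and 5, and their part in this result was not tested. Aldoc rose by 0.19 ± 0.066, 0.26 ± 0.066 and 0.28 ± 0.066 (edgeR adjusted p = 0.0226, 0.002 and 0.00155). The first of these was lost without imiquimod library 11 or drug library 27 (0.0696 and 0.0830).

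Egln1, a hydroxylase that marks HIF for destruction, rose for each start day. Its changes were 0.15 ± 0.041, 0.19 ± 0.041 and 0.14 ± 0.041 (edgeR adjusted p = 0.0038, 0.000421 and 0.00846). Egln3 had 157 to 237 CPM (median 180.1), 219 to 247 CPM (median 239.5) and 211 to 231 CPM (median 222) for start days 0, 3 and 5 and 132 to 216 CPM (median 169.7) in imiquimod ears. It did not pass for day 0 (0.12 ± 0.10, adjusted p = 0.384) and rose by 0.45 ± 0.10 and 0.37 ± 0.10 for days 3 and 5 (edgeR adjusted p = 0.000875 and 0.00622). Ndufa4l2 passed for start day 3 (log2 fold change 0.36 ± 0.10, edgeR adjusted p = 0.00567), with 66.8 to 84.1 CPM (median 77.3) and 45.9 to 70.3 CPM (median 60.4) in imiquimod ears. Its changes of 0.12 ± 0.10 and 0.21 ± 0.10 for days 0 and 5 did not pass. Among the other targets, Adm fell for start days 0 and 3 (-0.44 ± 0.13 and -0.39 ± 0.13, edgeR adjusted p = 0.00857 and 0.0205), the second of them lost without imiquimod library 9 (0.0800). Car9 fell for start day 0, with 0.714 to 1.49 CPM (median 0.951) and 1.34 to 1.62 CPM (median 1.57) in imiquimod ears (log2 fold change -0.57 ± 0.22, edgeR adjusted p = 0.0385), a call lost in 8 fits without 1 library (0.0585 to 0.0973). Car12, Bnip3, Ankrd37, Ndrg1, P4ha1 and P4ha2 passed for no start day.

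The remaining calls in the start-day experiment were spread over 6 genes. From day 0, Gpi1, Pfkl, Pfkfb3 and Pfkfb4 fell by 0.11, 0.27, 0.43 and 0.30 on the log2 scale (SE 0.04, 0.08, 0.13 and 0.07), and Gpi1 was lost without imiquimod library 10 or drug library 30 (adjusted p = 0.0548 and 0.0722). Hk1 rose by 0.14 ± 0.039 from day 3 and 0.10 ± 0.039 from day 5, Pfkp rose by 0.13 ± 0.044 from day 3, and Pfkfb3 fell by 0.36 (SE 0.13) from day 5. The day 5 calls of Hk1 and Pfkfb3 were lost in 9 and 8 fits without 1 library (adjusted p = 0.0561 to 0.182 and 0.0584 to 0.125) and the day 3 call of Pfkp in 4 (0.0670 to 0.0991). Hk2 passed for no start day (adjusted p = 0.51, 0.909 and 0.835).

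No difference among the 3 start days passed the edgeR test for these genes, which does not show that they act alike. The edgeR F test among the 3 groups called 0 of the 36 rows, where 0.00542% of all genes passed, which is 1 gene. At an unadjusted p under 0.05 there were 5 rows and 1669 of all 18434 genes. Limma voom called 0 of the rows and 2 of all genes, and DESeq2 called 130 of all genes and 2 of the rows, Pfkm and Pfkfb4 (DESeq2 adjusted p = 0.0276 and 0.0489). Without library 13 of start day 5, edgeR also called these 2 (adjusted p = 0.0227 and 0.0172). Pfkm had a mean of 107 ± 7.75 CPM, 91.3 ± 7.06 CPM and 90.5 ± 10.01 CPM for start days 0, 3 and 5 (SD, n = 6 each). For Pfkfb4 the means were 42 ± 3.56 CPM, 49.6 ± 2.39 CPM and 49.5 ± 6.04 CPM.

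Other genes of the same pathways moved in both directions. Of 19 tested genes of glycolysis and gluconeogenesis outside the 35, 5 rose and 8 fell with imiquimod at day 2, 6 and 10 at day 5, 5 and 10 at day 8, and 3 and 12 in the start-day experiment. Of all tested genes, 29.2% rose and 28.5% fell at day 2, and 34.6% and 35.9% at day 5. The shares were 34.5% and 33.6% at day 8, and 38.1% and 39.9% in the start-day experiment. Hk3, the hexokinase of myeloid cells, rose by 1.48 ± 0.30, 3.52 ± 0.33, 2.64 ± 0.28 and 2.42 ± 0.16 in these comparisons (edgeR adjusted p of at most 3.32e-05). Pfkfb2, the heart form of the regulator, fell by 0.71, 1.34 and 0.91 on the log2 scale at days 2, 5 and 8 (SE 0.09, 0.10 and 0.09). Eno3 and Pgam2, the muscle forms of the 2 enzymes, and Slc2a4, the insulin-responsive glucose transporter of muscle and fat, had log2 fold changes of -2.02 ± 0.083, -1.73 ± 0.075 and -1.56 ± 0.085 in the start-day experiment. With the drug from day 0 these last 3 rose by 0.56 ± 0.082, 0.50 ± 0.075 and 0.52 ± 0.086. With the drug at day 5 of the time course, 5 of the 19 rose and 3 fell, where 18.3% and 17.2% of all genes did. Hk3 was among those that fell (-1.17 ± 0.25, edgeR adjusted p = 0.000202).

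Of 14 genes of pyruvate use, 6 rose and 5 fell at day 2, 5 and 8 at day 5, 6 and 7 at day 8, and 3 and 9 in the start-day experiment. Over these imiquimod comparisons, 29.2 to 38.1% of all tested genes rose and 28.5 to 39.9% fell. Pdk2, a relative of Pdk1, had log2 fold changes of -0.78 ± 0.11, -1.37 ± 0.12 and -1.20 ± 0.11 at days 2, 5 and 8 and of -2.01 ± 0.075 in the start-day experiment. Mpc2, a subunit of the mitochondrial pyruvate carrier, fell by 0.60, 0.61 and 1.05 at day 5, at day 8 and in the start-day experiment (SE 0.06, 0.06 and 0.05). With the drug at day 5, 6 of the 14 rose and 0 fell by edgeR, Pdk2 (0.55 ± 0.11) and Mpc2 (0.45 ± 0.055) among them. From start days 0, 3 and 5, 6, 6 and 4 rose and 1, 1 and 2 fell. Of all genes, 18.3% rose and 17.2% fell with the drug at day 5. For the start days, 15 to 18.2% of all genes rose and 12.7 to 16.9% fell.

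Of 25 other genes of the hypoxia pathway, 9 rose and 12 fell with imiquimod at day 2, 11 and 9 at day 5, 11 and 11 at day 8, and 13 and 10 in the start-day experiment. The shares of all tested genes in these comparisons were 29.2 to 38.1% higher and 28.5 to 39.9% lower. P4hb, the beta subunit of the collagen prolyl hydroxylases, rose by 0.90 ± 0.063, 1.38 ± 0.073 and 1.10 ± 0.063 at days 2, 5 and 8. Ndufa4, the paralogue of Ndufa4l2, rose by 0.72 ± 0.065, 1.17 ± 0.075 and 1.14 ± 0.065, and Ero1a, an oxidase of protein folding, by 1.47 ± 0.10 and 1.17 ± 0.087 at days 5 and 8. With the drug, 4 rose and 5 fell at day 2, 4 and 11 at day 5, and 1 and 0 at day 8. The shares of all genes were 6.90% and 9.61%, 18.3% and 17.2%, and 1.22% and 0.335% at these days. The 1 gene at day 8 was Hilpda, a lipid droplet protein (log2 fold change 0.58 ± 0.14, edgeR adjusted p = 0.0245). From start days 0, 3 and 5, 5, 4 and 5 of the 25 rose and 6, 3 and 4 fell. For these start days, 15 to 18.2% of all genes rose and 12.7 to 16.9% fell.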

How the data were processed

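Ear punch RNA was made into libraries with a poly(A)-selecting kit and sequenced in bulk, per the labels' protocols. The values are estimated counts that the authors deposited per gene, made with salmon, per the names of the tables, against GRCm39, per the submitters' processing notes. The salmon version, annotation and strand setting were not given in the sources used here. Counts were rounded to whole numbers, and 0 columns belonged to no sample. Each experiment was fitted apart in edgeR 4.0.16 (R 4.3.3) with all its groups in 1 model: filterByExpr, TMM scaling, a robust quasi-likelihood F test and Benjamini-Hochberg adjustment over all tested genes. A gene was called at an adjusted p under 0.05. SE is the size of the log2 fold change divided by the square root of F. CPM used TMM-scaled library sizes, and log2 CPM a prior count of 2. A floor of 3 counts covers counting error only. The edgeR step was tested on simulated counts for the drug comparison at day 5, with changes placed only in genes above a minimum count. That run did not cover changes in genes below that count or the tests among days. Alternatives used limma 3.58.1 and DESeq2 1.42.0, other scalings and filters, and fits without single libraries. The members and gene lists were chosen with earlier results of these data known. For each comparison, the 3 called members with the highest and the 3 with the lowest log2 fold change, the 3 smallest adjusted p of each F test and all paralogue pairs are given in full. Of the other pathway genes, up to 4 called genes by smallest adjusted p were eligible to be named.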

Additional observations from a re-analysis of the deposited data

Results flagged for a closer look

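Dixon's test on log2 CPM was run for 22 named rows and for the median over the members in each of the 14 groups. This gave 322 sets of 4 to 6 values, which reuse the same libraries and are not independent. In 25 of these sets, 1 library lay far from the others of its group, where chance alone gives about 1 in 20. Library 13 of start day 5 was low for Car12 (141 CPM), Hif1a (141 CPM), Car9 (0.481 CPM) and the median over the members (0.81 on the log2 scale). Library 21 of start day 3 was low for Bnip3 (41.6 CPM) and Pdk1 (65.9 CPM) and high for Ndrg1 (162 CPM). Library 13 with the drug at day 2 was high for Slc2a3 (5.99 CPM) and low for Car9 (0.491 CPM). With the drug at day 5, Slc2a3 was high in library 36 (8.53 CPM) and Car12 low in library 32 (153 CPM). With the drug at day 8, library 53 was high for Ndrg1 (176 CPM) and Pfkfb3 (60.1 CPM), and library 56 low for P4ha2 (14.6 CPM). In imiquimod ears at day 8, library 44 was low for Hif1a (202 CPM) and Slc16a3 (42.9 CPM) and library 45 for the second Aldoa row (0.0715 CPM). In imiquimod ears of the start-day experiment, Pfkm was low in library 8 (63.5 CPM), Aldoc low in library 11 (24.2 CPM) and Ndrg1 high in library 9 (177 CPM). In sham ears, Bnip3 was high in library 3 (64.0 CPM) and Hif1a in library 5 (94.0 CPM) at day 2. At day 5, Hif1a was high in sham library 22 (79.9 CPM), the second Aldoa row high in library 21 (1.12 CPM) and Slc16a3 low in library 19 (10.6 CPM).

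The imiquimod effect differed among days 2, 5 and 8 by the edgeR interaction test for 31 rows. Among transporters and glycolytic enzymes, the adjusted p was 1.81e-07 for Slc2a1, 0.0135 for Slc2a3, 3.76e-07 for Hk1, 0.0248 for Hk2, 1.5e-07 for Gpi1, 1.53e-09 for Pfkl, 0.000214 for Pfkp, 0.000158 for Pfkfb3 and 1.03e-05 for Pfkfb4. It was 3.41e-07 for Aldoa, 8.93e-13 for Tpi1, 9.23e-10 for Gapdh, 2.02e-09 for Pgk1, 1.5e-07 for Pgam1, 4.51e-10 for Eno1 and 3.06e-11 for Pkm. For lactate and pyruvate genes it was 1.11e-10 for Ldha, 3.07e-05 for Ldhb, 0.00425 for Slc16a1, 5.14e-09 for Slc16a3 and 0.000183 for Pdk1. For HIF, its hydroxylases and targets it was 0.00258 for Hif1a, 2.09e-11 for Egln1, 7.21e-11 for Egln3, 0.00274 for Car9, 1.44e-06 for Car12, 3.91e-13 for Ndufa4l2, 0.00161 for Bnip3, 0.00129 for Ankrd37, 8.63e-05 for Ndrg1 and 0.00919 for P4ha1. The call of Hk2 was lost without imiquimod library 10 or 12 of day 2 (adjusted p = 0.0513 and 0.0527). The drug effect differed among days for 9 rows, with edgeR adjusted p of 0.000253 for Pfkfb3, 0.00028 for Ldhb, 0.000824 for Ndrg1, 0.00462 for Hk2, 0.00633 for Adm, 0.0166 for Slc2a3, 0.0175 for Ankrd37, 0.0372 for Egln3 and 0.0449 for Slc16a3.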

How the results depend on the processing

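No paired analysis was possible because replicate numbers run on through the groups of each experiment, so no number is shared. Over the members' single tests in the other settings, 3492 results kept their side of the threshold. A call was lost in 80 and gained in 77, and 3 reversed. With 1 library left out these were 7753, 167, 72 and 0. A reversal is a change of sign where the main or the other fit called the gene. Changes of sign in uncalled values were not counted, and the F tests have no sign. The 3 reversals came with scaling by library totals: P4ha1 at day 5 (-0.027), Pdk1 at day 8 (-0.010) and Aldoa in the start-day experiment (-0.15). That scaling moved the all-gene median to -0.23 at day 5, -0.19 at day 8 and -0.24 in the start-day experiment; the cause was not tested.

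Asking also for a log2 change of 1 or more in size left 5 rows higher and 0 lower for imiquimod at day 2 and 19 and 2 at day 5. It left 19 and 0 at day 8, and 16 and 3 in the start-day experiment. Of all genes, 1955, 4954, 4083 and 5421 were left in these comparisons. For the drug it left 0 and 0 at day 2, 0 and 2 at day 5, and 0 and 0 for each start day. There, 210 and 918 of all genes were left at days 2 and 5, and 577, 478 and 361 for start days 0, 3 and 5. With the compared groups alone, the drug counts were 0 and 0 at day 2 and 1 lower at day 8. Among sham days, 7 rows differed in that setting. Of all genes, 0 and 0 were called at day 2, 88 were lower at day 8 and 1241 of 17702 differed among sham days. Without imiquimod libraries 9 and 11 the drug counts were 0 and 0 at day 2, where 6 and 1 of all 18741 genes were. With limma voom, 4 rows were higher with the drug at day 8, 20 differed in drug effect among days and 5 among sham days. Of all 18780 genes, 533, 2488 and 1797 did. With DESeq2, 4 rows were higher at day 8, 16 differed in drug effect and 2 among start days. Of all genes, 408 and 2216 of 18780 and 130 of 18434 did.

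Leaving out 1 library gave, for imiquimod, 15 to 17 higher and 7 to 8 lower at day 2, 28 to 29 and 3 to 4 at day 5, 26 to 27 and 4 to 5 at day 8, and 28 to 29 and 6 to 6 in the start-day experiment. For the drug it gave 1 to 3 higher and 8 to 14 lower at day 2, 3 to 3 and 18 to 25 at day 5, and 0 to 1 and 0 to 0 at day 8. For start day 0 it gave 3 to 5 and 14 to 18, for day 3 7 to 9 and 10 to 12, and for day 5 5 to 7 and 10 to 13. Rows that differed numbered 30 to 31 for the imiquimod effect, 7 to 21 for the drug effect, 0 to 4 among sham days and 0 to 2 among start days. At day 2 the drug's higher count was 1 without imiquimod library 7, 8 or 9 or drug library 13 or 14, and its lower count 8 without imiquimod library 11; at day 8 the higher count was 1 without drug library 51. Depth limits the second Aldoa row, whose lowest library held 1 count, below the floor of 3 counts.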

Other observations

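The pentose phosphate pathway, which branches off glycolysis after hexokinase and yields NADPH, rose with imiquimod in most of its 8 listed genes. At day 2, 5 rose and 0 fell, at day 5, 6 and 0, at day 8, 7 and 0, and in the start-day experiment 5 and 0 (edgeR adjusted p under 0.05). Of all tested genes, 29.2%, 34.6%, 34.5% and 38.1% rose and 28.5%, 35.9%, 33.6% and 39.9% fell. G6pdx, its rate-limiting dehydrogenase, had log2 fold changes of 0.70 ± 0.054, 1.13 ± 0.062, 1.07 ± 0.054 and 1.32 ± 0.036 in these comparisons (edgeR adjusted p of at most 1.16e-15). Pgd, the dehydrogenase after it, had changes of 0.50 ± 0.059, 1.22 ± 0.068, 1.04 ± 0.059 and 1.25 ± 0.051 (edgeR adjusted p of at most 4.15e-10), and Tkt, the transketolase, 0.49 ± 0.045, 0.76 ± 0.052, 0.53 ± 0.045 and 0.68 ± 0.038 (at most 2.85e-13). With the drug, 0 rose and 1 fell at day 2, 0 and 2 at day 5, and 0 and 0 at day 8. The shares of all genes at these days were 6.90% and 9.61%, 18.3% and 17.2%, and 1.22% and 0.335%. The 2 at day 5 were Pgd (-0.26 ± 0.058, edgeR adjusted p = 0.000305) and H6pd, the dehydrogenase of the endoplasmic reticulum (-0.53 ± 0.087, edgeR adjusted p = 6.26e-06). For start days 0, 3 and 5, 0, 1 and 0 rose and 3 fell each time, with Pgd at -0.31 ± 0.05, -0.26 ± 0.05 and -0.23 ± 0.05 (edgeR adjusted p of at most 0.0008). Of all genes, 15 to 18.2% rose and 12.7 to 16.9% fell for these start days.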
